A study of Mus musculus with 168 samples.

Results

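The cortex of mice carrying the Q175 allele of the huntingtin gene was compared with that of mice carrying the shorter Q111 allele at 6 months of age. The 2 groups were taken by genotype and age from the titles of the deposited cortex libraries, which gave 8 libraries for each allele, 16 of 168 in all. Both alleles are knock-ins, in which an expanded CAG repeat with a nominal length of 175 or 111 repeats sits in the mouse's own Htt gene on 1 of its 2 copies. The other copy is normal in both groups, and no wild-type mouse entered the main comparison. All mice were C57BL/6, each group held 4 females and 4 males, and the tissue was flash-frozen cortex from which polyadenylated RNA was sequenced on HiSeq instruments. Libraries are named here by allele, by sex (F or M) and by their number within that sex.

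Huntingtin is a large scaffold protein that takes part in vesicle transport along microtubules and in transcription, and its CAG repeat encodes a run of glutamines. Long repeats cause Huntington's disease, in which projection neurons of the striatum and of the cortex that connects to it are affected most. Loss of neuronal identity transcripts, among them signalling proteins, ion channels and neuropeptides, is a known early feature of the striatum in mouse models of the disease.

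A heterozygous mouse still makes normal huntingtin, so the comparison is of 2 expanded alleles on the same background and not of disease with health. The labels state that mice lived with cage mates of their own allele, so allele and cage cannot be told apart. At 6 months the library numbers of each allele also formed a block of their own, so that allele and library block cannot be told apart. The p-values measure the spread between these 16 libraries. In bulk tissue, fewer cells of a type and less RNA per cell cannot be told apart.

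Levels are given as CPM, a gene's count scaled so that every library has the same effective total. The 16 libraries held between 33942389 and 44394102 estimated counts, and the median correlation of each with the others lay between 0.9911 and 0.9928. The defining transcripts of cortical projection neurons were present throughout, with the vesicular glutamate transporter Slc17a7 at 987 to 1162 CPM in Q111 and at 954 to 1090 CPM in Q175. Of a list of 20 liver transcripts, 4 could be tested and none passed, and the summed level of the list was 9.76 to 26.3 CPM in Q111 and 9.98 to 50.3 CPM in Q175. In Q175 F2 and Q175 M2 the counts leaned to short transcripts: their log2 difference between the longest and the shortest transcripts, each group holding 20% of genes and set against the mean of all libraries, was -0.157 and -0.227, while that of the other 14 libraries lay between -0.0481 and 0.0978. Where the count of called genes in a list fell without these 2 libraries, both counts are given.

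The Htt gene (ENSMUSG00000029104, chromosome 5 from 34761740 to 34912534, GRCm38) was measured first. In Q111 its level was 197 CPM in the lowest library, 209 at the median and 228 in the highest. The Q175 libraries ran from 120 through a median of 161 to 170 CPM. All Q175 libraries lay below all Q111 libraries, and the lowest of them were Q175 M2 at 120 CPM and Q175 F2 at 146 CPM. The log2 difference was -0.43 ± 0.056 (SE, edgeR quasi-likelihood test, adjusted p = 3.64e-04), and -0.36 without those 2 libraries. A single value per gene does not separate the expanded from the normal copy.

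Across the transcriptome, many genes differed by small amounts. Of 16695 genes tested, 759 passed an adjusted p of 0.05 (4.55%), with 301 higher in Q175 (1.8%) and the remainder lower (2.74%). The median size of these differences was 0.178 on the log2 scale, 41 exceeded 0.5 and 6 exceeded 1. The split depended on the measure: of the 759 genes 39.7% were higher, beside 65.0% of those called on log2 FPKM with limma. After each library was centred on its median log2 FPKM, 267 genes were higher and 278 lower. Without Q175 F2 and M2, 477 genes passed, 163 higher and 314 lower, of which 416 were among the 759.

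The 14 genes with the smallest p among those lower in Q175 included the kinase genes Plk5 and Hipk4, the orphan receptor gene Gpr153 and the sodium channel subunit gene Scn4b. In each of these 14 genes all 8 Q175 libraries lay below the lowest Q111 library. This separation describes genes chosen for a small p in the same 16 libraries, and its share over all genes was not counted. The 14 genes all passed again without Q175 F2 and M2, with the length lean as a covariate, and when any 1 library was left out. The first was Plk5 (ENSMUSG00000035486, chromosome 10 from 80356459 to 80365489), a member of the polo-like kinase family found in brain.

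Plk5 was measured at 22.9 to 26.6 CPM in Q111, with a median of 24.7. In Q175 its range was 13.5 to 17 CPM, with a median of 15.3. The gap between the groups was wider than the spread within either, at a log2 difference of -0.69 ± 0.043 (adjusted p = 1.85e-09). Hipk4 (ENSMUSG00000040424, chromosome 7 from 27523267 to 27531175), a kinase of the homeodomain-interacting family, had a lowest, median and highest level of 59.8, 65.1 and 68.9 CPM in Q111. Its Q175 levels were 44.9, 49.2 and 53.2 CPM, a difference of -0.38 ± 0.035. The orphan receptor gene Gpr153 was lower by the same pattern, with 25.5 to 32.1 CPM in Q111 and 18.4 to 23.8 CPM in Q175 (-0.49 ± 0.044).

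Wfs1 (ENSMUSG00000039474, chromosome 5 from 36966104 to 36989205) encodes wolframin, a protein of the endoplasmic reticulum membrane that is abundant in upper cortical layers and in hippocampal area CA1. Its levels in Q111 were 126 to 142 CPM around a median of 131. Those in Q175 were 99.8 to 113 CPM around a median of 107. No Q175 library reached the Q111 range, and the log2 difference was -0.31 ± 0.030 (adjusted p = 2.19e-06).

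Camk2n1 encodes an inhibitor of the calcium/calmodulin-dependent kinase CaMKII. Its levels ran from 1571 through 1739 to 1805 CPM in Q111. In Q175 they ran from 1290 through 1355 to 1507 CPM, so the groups did not overlap and the log2 difference was -0.33 ± 0.033. Lamp5, a lysosome-associated membrane protein of neurons, stood at 156 to 183 CPM in Q111 and at 124 to 143 CPM in Q175 (-0.32 ± 0.033). Scn4b, the beta-4 subunit of voltage-gated sodium channels and abundant in striatal projection neurons, was measured at 94.2 to 119 CPM in Q111 and at 71.5 to 86.2 CPM in Q175 (-0.44 ± 0.043). Gabrd, the delta subunit of extrasynaptic GABA-A receptors, had 66.3 to 71.1 CPM in Q111 and 49.3 to 59.7 CPM in Q175 (-0.32 ± 0.033).

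The other members of this leading set were Adam33, a membrane-bound metalloprotease (-0.53), Ddit4l, an inhibitor of mTOR signalling (-0.44), and Gsg1l, an auxiliary subunit of AMPA receptors (-0.29). Cpne9, a copine that binds membranes with calcium, differed by -0.28. Arpp21 and Arpp19, phosphoproteins regulated by cyclic AMP, differed by -0.22 and -0.20. Arpp21 shares its locus with genes on the opposite strand, and whether the counting used strand is not given in the sources used here.

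**Figure D1:**
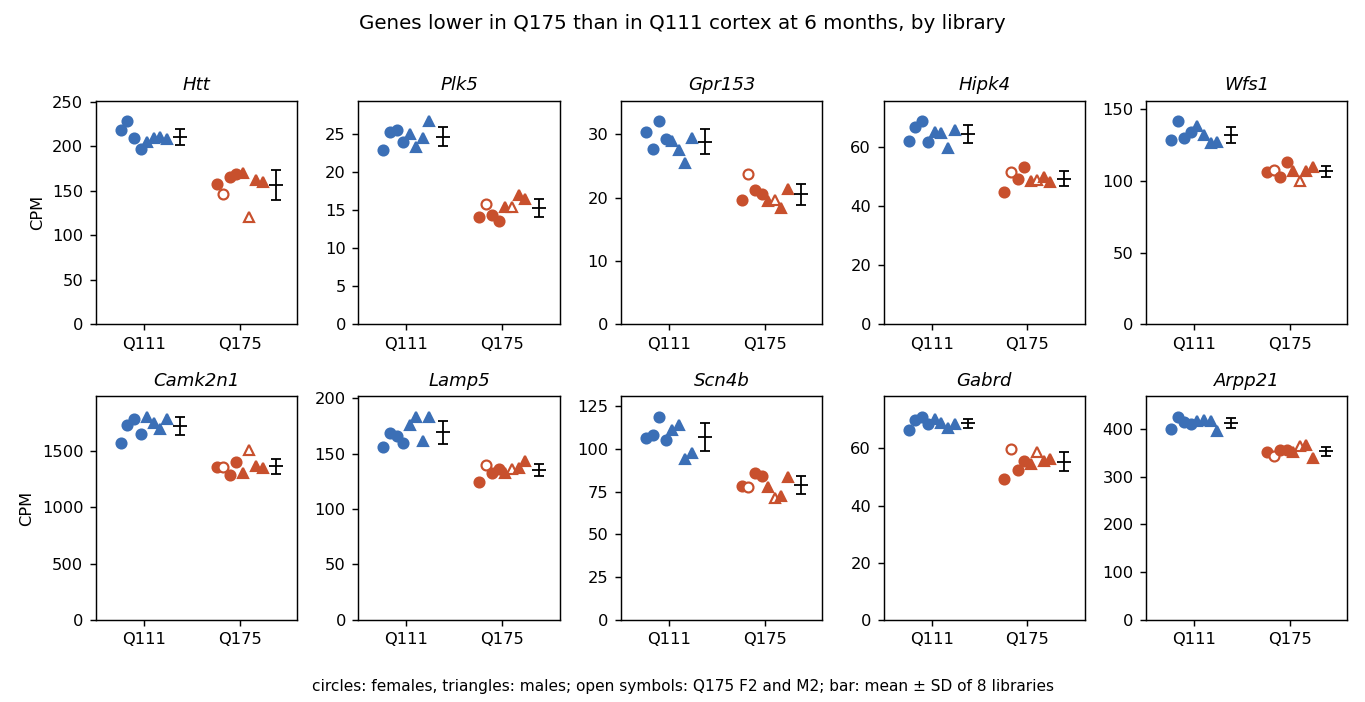
Level in CPM of 10 transcripts that were lower in Q175 than in Q111 cortex at 6 months, 1 point per library (circles female, triangles male, open symbols Q175 F2 and M2) with the mean and SD of 8 libraries. In every panel the Q175 points lie below all Q111 points.

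The 14 leading genes higher in Q175 included the enzyme gene Asl, the transcription factor genes Prdm8 and Bhlhe22 and the tubulin gene Tubb5. The smallest p belonged to Asl (ENSMUSG00000025533, chromosome 5 from 130011258 to 130029247), argininosuccinate lyase, which makes arginine. Its lowest, median and highest levels were 12.7, 13.4 and 14 CPM in Q111. In Q175 they were 15.9, 16.4 and 17.2 CPM. The groups were separate, with a log2 difference of 0.29 ± 0.035 (adjusted p = 4.13e-05).

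Prdm8 and Bhlhe22 encode transcriptional repressors of projection neurons that are known to act as partners. Prdm8 ran from 16.8 to 22.1 CPM in Q111 and from 21 to 24.6 CPM in Q175 (0.32 ± 0.048). Bhlhe22 differed by 0.27 ± 0.046, with 23.1 to 30.2 CPM in Q111 and 27.1 to 33.9 CPM in Q175. Both pairs of ranges overlapped, by 1 Q175 library for Prdm8 and by 3 for Bhlhe22.

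The largest relative differences in the set were in transcripts of low level. Rgs13, a regulator of G-protein signalling, had 0.199 to 0.507 CPM in Q111 with a median of 0.279. In Q175 it had 0.371 to 0.868 CPM with a median of 0.798, and Q175 F4 was the single library inside the Q111 range. Cldn14, a tight-junction claudin, ran from 0.328 to 0.648 CPM in Q111 and from 0.587 to 1.23 CPM in Q175. The log2 differences were 1.24 ± 0.192 for Rgs13 and 1.06 ± 0.176 for Cldn14.

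Other leading genes were abundant and differed by little. Tubb5, a beta-tubulin, stood at 391 to 422 CPM in Q111 and at 424 to 469 CPM in Q175 (0.15 ± 0.023). Uchl1, a neuronal ubiquitin hydrolase, ran from 355 to 398 CPM in Q111 and from 390 to 453 CPM in Q175 (0.18 ± 0.033). Acot7, an acyl-CoA thioesterase of neurons, differed by 0.20, the presynaptic protein gene Tprgl by 0.15 and Anapc5, a subunit of the anaphase-promoting complex, by 0.14. The deep-layer transcript Rprm, the somatostatin receptor Sstr1 and Samd14 differed by 0.22, 0.34 and 0.25. Prdm8, Acot7, Tprgl and Uchl1 share their loci with genes on the opposite strand. All 14 passed without Q175 F2 and M2, whereas Tubb5, Rprm and Samd14 did not pass once the L token of the library name, whose meaning the labels do not give, was a term.

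**Figure D2:**
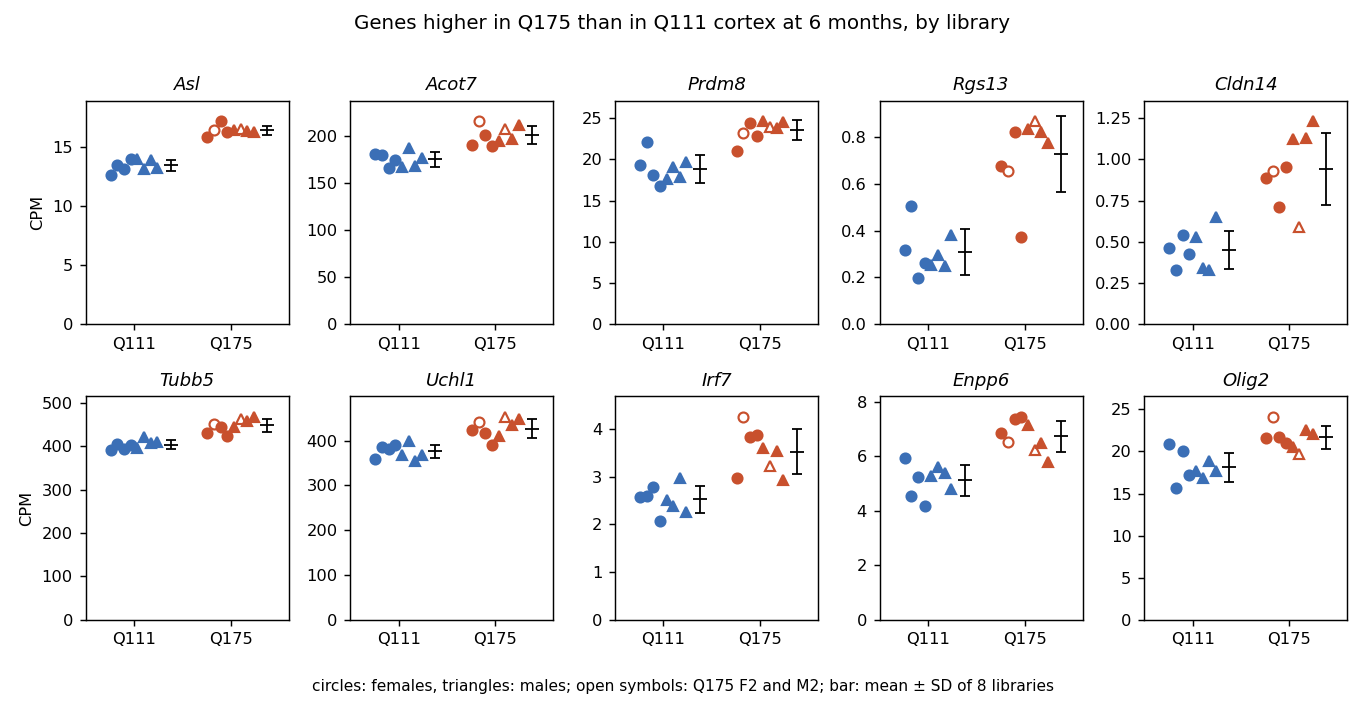
Level in CPM of 10 transcripts that were higher in Q175 than in Q111 cortex at 6 months, drawn as for the lower transcripts. Asl, Acot7 and Tubb5 separate the groups, while the others overlap in at least 1 library, such as Q175 F4 for Rgs13.

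Signalling genes were then examined by list, beside the 2.74% lower and 1.8% higher among all genes, whose median difference was 0.00. Of 22 transcripts of striatal projection neurons, which cortex also expresses at lower level, 5 were lower and none higher (median -0.12). These were Scn4b, Ppp1r1b (DARPP-32, a dopamine-regulated phosphatase inhibitor, -0.26), the dopamine receptor Drd1 (-0.27), the enkephalin precursor Penk (-0.25) and Rasd2, a striatal small GTPase (-0.23). Drd1 was measured at 18.1 to 25.1 CPM in Q111 and at 16.9 to 19.1 CPM in Q175, and the ranges met in 1 library. The count rose to 9 without Q111 M4 and was 2 with the L token as a term. The summed level of the list was 1508 to 1779 CPM in Q111 and 1402 to 1559 CPM in Q175. Whether a changed share of striatal tissue has a part in these calls was not tested.

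In cyclic AMP, calcium and opioid signalling, 11 of 31 genes were lower and none higher (median -0.12). The alpha and beta subunits of CaMKII, Camk2a (-0.24) and Camk2b (-0.11), were both among them. Camk2a ran from 3445 to 3822 CPM in Q111 and from 2737 to 3340 CPM in Q175, without overlap. The upstream kinase Camkk2 (-0.21), the nuclear kinase Camk4 (-0.23) and the protein kinase C gene Prkcb (-0.16) were lower too. The remaining members were Rgs4, a brake on Gq and Gi signalling (-0.20), Itpka, an inositol trisphosphate kinase of dendritic spines (-0.20), the delta opioid receptor Oprd1 (-0.25), Ppp1r1b, Penk and Arpp21. The count of lower genes was 10 without Q175 F2 and M2. It was 6 with the L token term, where the median was -0.05.

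Potassium channel genes were lower in 12 of 44 cases and higher in none (median -0.10). Kcnc1, a Kv3 channel gene of fast-spiking neurons, differed by -0.19. It ran from 213 to 234 CPM in Q111 and from 177 to 206 CPM in Q175. Members of the ether-a-go-go family were among them, Kcnh4 with -0.41, Kcnh5 with -0.37 and Kcnh7 with -0.19. The channel-interacting proteins Kcnip2 (-0.19) and Kcnip3 (-0.15), the axonal channel Kcna1 (-0.21) and Kcnab3, Kcnq5, Kcnj9 and Kcnj10 were also lower. The list had 9 lower genes and a median of -0.05 without Q175 F2 and M2. With the length lean as a term it had 7 and a median of -0.03, and with the L token as a term 7. Of 32 sodium and calcium channel genes 3 were lower and none higher (median -0.08): Scn4b, the ryanodine receptor Ryr1 (-0.37) and the AMPA and calcium channel auxiliary subunit Cacng3 (-0.15). The median of that list was -0.05 without Q175 F2 and M2.

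**Figure D3:**
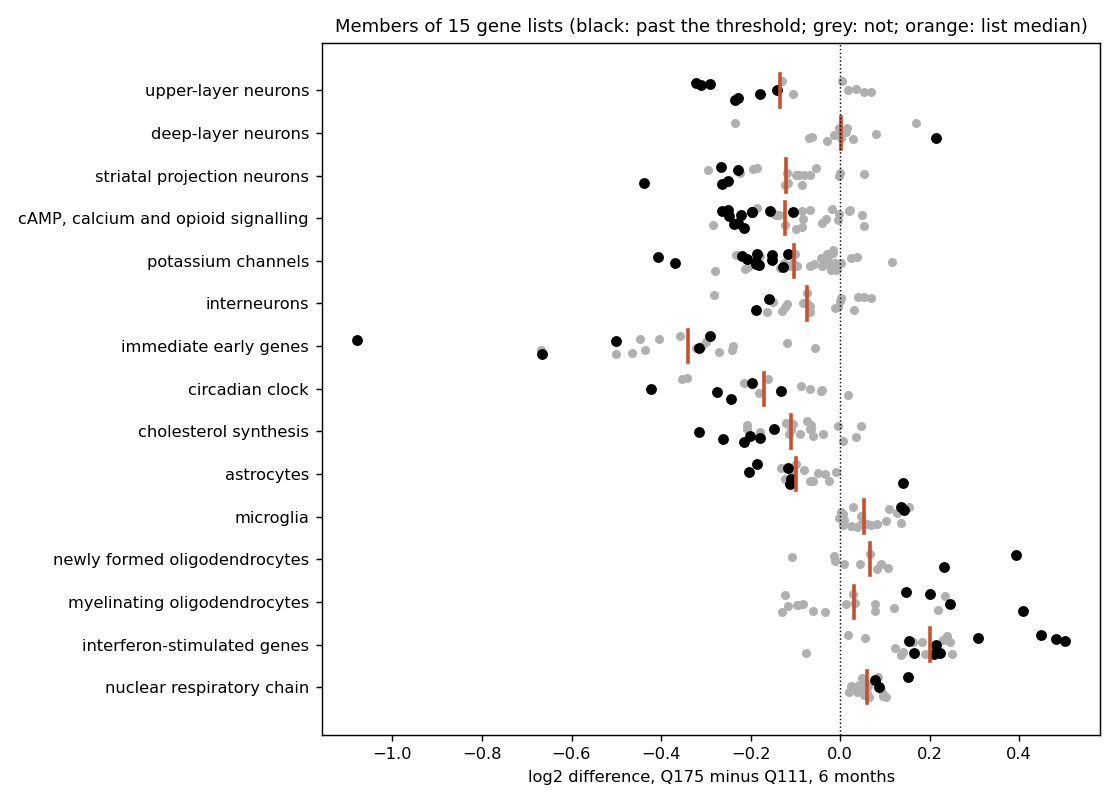
Log2 difference between Q175 and Q111 cortex at 6 months for the members of 15 gene lists, 1 point per gene, black where the gene passed the threshold and grey where it did not, with the list's median in orange. Potassium channel, signalling and upper-layer lists have medians from -0.10 to -0.13 and immediate early genes -0.34, while the interferon list has 0.20.

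Markers of cortical layers differed in their counts. Of 14 upper-layer transcripts 9 had a difference below 0 and 5 above (median -0.13). Past the threshold 7 were lower and none higher. Besides Lamp5 and Wfs1 these were Rasgrf2, an exchange factor of layer 2/3 neurons (-0.23), the homeobox genes Cux1 (-0.18) and Cux2 (-0.14), the Wnt agonist Rspo1 (-0.24) and the activity-regulated pentraxin Nptx2 (-0.29). Rasgrf2 ran from 203 to 222 CPM in Q111 and from 158 to 197 CPM in Q175. The summed level of the list was 1119 to 1191 CPM in Q111 and 1004 to 1077 CPM in Q175, again without overlap. Of 14 deep-layer transcripts none was lower and Rprm was higher (median 0.00). In the fit without Q175 F2 and M2, 5 upper-layer genes passed, Nptx2 not among them. The call of Nptx2 also ended in 11 of the 16 fits that left out 1 library. Whether the upper-layer list differed from the deep-layer list was not tested.

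General neuronal lists held 1 to 3 lower genes each, beside 2.74% lower among all genes. Of 12 glutamatergic markers, Camk2a and the neuritin gene Nrn1 (-0.21) were lower. The transcription factors Tbr1, Neurod6 and Fezf2 did not pass, with log2 differences between 0.00 and 0.03 in size. Metabotropic glutamate receptors of the presynaptic and glial kind, Grm4 (-0.28), Grm2 (-0.28) and Grm3 (-0.16), were the 3 of 22 glutamate receptor genes that passed, and 2 passed without Q175 F2 and M2, Grm3 not among them. Gabrd was the only 1 of 16 GABA-A and related receptor genes to pass. Among 21 interneuron markers Kcnc1 and the nitric oxide synthase Nos1 (-0.16) were lower, the latter with an adjusted p of 0.0483. The call of Nos1 ended in 10 of the 16 fits that left out 1 library. Nos1 also did not pass without Q175 F2 and M2, with the length lean as a term or with the L token as a term. The neuropeptide list gave 2 of 19 lower, Nrn1 and Penk, and 1 higher, Adcyap1, the precursor of PACAP (0.22). Adcyap1 did not pass without Q175 F2 and M2, and its call ended in 7 of the 16 fits that left out 1 library.

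Immediate early genes, which neurons transcribe within minutes of activity, had the most negative median of the 40 lists. All 20 had a difference below 0 (median -0.34), and 5 passed. Egr2 was measured at 8.48 to 18.8 CPM in Q111 with a median of 14.6. In Q175 it stood at 4.81 to 9.01 CPM with a median of 6.45, and the ranges met only in 1 Q175 library (-1.08 ± 0.186, adjusted p = 0.00533). Fos ran from 36.0 to 59.0 CPM in Q111 and from 21 to 40.6 CPM in Q175 (-0.67 ± 0.158).

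The other 3 were Egr1 (-0.50), Nr4a2 (-0.31) and Nptx2 (-0.29). The count of lower genes depended on which library was left out. It was 1 without Q111 M2, Q111 M3 or Q175 M3, 2 without Q111 F2, Q175 F2, Q175 F3, Q175 M1 or Q175 M4, 3 without Q111 F4, Q111 M1, Q175 F1 or Q175 M2, and 11 without Q111 F1. Egr2 passed in each of these fits. The count was 3 without Q175 F2 and M2 together. It was 1 with the L token as a term, where Nptx2 passed and Egr2 did not.

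Interferon-stimulated genes had the highest median of the 40 lists. Of 24 listed genes 23 had a difference above 0, 9 were higher and none lower (median 0.20). Irf7, the transcription factor that amplifies the type I interferon response, ran from 2.07 to 2.97 CPM in Q111 and from 2.92 to 4.25 CPM in Q175 (0.48 ± 0.091, adjusted p = 0.00317). The antiviral enzyme genes Oas1a and Oasl2 differed by 0.50 and 0.45, and Ifit3, which binds foreign RNA, by 0.31. H2-D1 and H2-K1, heavy chains of class I histocompatibility molecules, each differed by 0.21.

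B2m, the light chain shared by those molecules, was measured at 74.2 to 77.5 CPM in Q111 with a median of 75. In Q175 it ran from 73.7 to 90.5 CPM with a median of 84.7. Of the Q175 libraries 7 lay above all of Q111 and 1 lay below all of it, so the Q175 group was the wider. The summed level of the list was 306 to 320 CPM in Q111 and 307 to 380 CPM in Q175. Ifi27 differed by 0.22. Irf7 and B2m share their loci with genes on the opposite strand. Without Q175 F2 and M2, 5 genes passed and with the length lean as a term 7. With the L token as a term none passed.

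To show the sequence in front of such genes, promoters from RefSeq (GRCm38.p6) were searched on both strands for TTTC, any 2 bases and TTTC again, the core of the interferon-stimulated response element bound by interferon-activated factors. The windows ran from 250 bases before to 50 bases after each start site. The motif was in 3.44% of 32851 promoters, which belong to 27025 genes, of which 3.99% held it. It was in 12 of the 21 listed interferon genes with a promoter in the table (57.1%), among them 3 of 7 that passed. The 250 bases upstream of Ifit3 (chr19:34583279-34583528, plus strand) and of B2m (chr2:122147437-122147686, plus strand) are printed because they carry the motif in the forward and in the reverse direction, in capitals. A match describes the letters and not binding.
Ifit3: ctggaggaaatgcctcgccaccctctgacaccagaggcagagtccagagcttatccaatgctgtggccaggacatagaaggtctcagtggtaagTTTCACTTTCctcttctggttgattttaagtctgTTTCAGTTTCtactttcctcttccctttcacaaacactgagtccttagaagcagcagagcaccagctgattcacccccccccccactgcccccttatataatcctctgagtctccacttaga
B2m: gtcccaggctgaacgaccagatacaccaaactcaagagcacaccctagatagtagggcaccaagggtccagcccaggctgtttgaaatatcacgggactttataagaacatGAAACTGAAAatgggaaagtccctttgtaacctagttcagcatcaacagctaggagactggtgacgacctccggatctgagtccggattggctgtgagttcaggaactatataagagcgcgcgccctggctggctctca
In Ifit3 the copies begin 156 and 122 bases before the start site, and in B2m the single copy begins 139 bases before it.

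Genes of the circadian clock were lower in 5 of 16 cases and higher in none (median -0.17). Nr1d1, which encodes the repressor REV-ERB-alpha, ran from 123 to 143 CPM in Q111 and from 95.1 to 118 CPM in Q175, without overlap (-0.28 ± 0.042). It shares its locus with Thra on the opposite strand. Ciart, another repressor of the clock, ran from 17.6 to 27.8 CPM in Q111 and from 11.2 to 21.1 CPM in Q175 (-0.42 ± 0.075). The period gene Per3 (-0.24) was lower too, with ranges that overlapped. The output factors Hlf (-0.20) and Tef (-0.13) were the remaining 2. The count was 8 without Q111 F1 and 3 without Q175 F2 and M2. The hour at which tissue was taken is not given in the sources used here.

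The E-box CACGTG, bound by CLOCK and BMAL1 on both strands alike, was in 7.15% of the same promoters, or 8.09% of genes, and in 5 of 14 clock genes (35.7%), among them 2 of 5 that passed. The 250 bases upstream of Ciart (chr3:95882229-95882478, minus strand) are shown because they hold it 3 times, 116, 58 and 44 bases before the start site, in capitals.
Ciart: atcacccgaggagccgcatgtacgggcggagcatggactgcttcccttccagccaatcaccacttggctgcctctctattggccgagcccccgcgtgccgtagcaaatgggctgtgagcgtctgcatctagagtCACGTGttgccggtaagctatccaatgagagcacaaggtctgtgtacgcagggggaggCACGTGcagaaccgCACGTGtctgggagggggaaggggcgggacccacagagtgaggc
The cyclic AMP response element TGACGTCA was in 1.79% of promoters, or 2.03% of genes, and in 2 of 15 immediate early genes, with none among the 3 of them that passed.

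Cholesterol synthesis genes were lower in 6 of 25 cases (median -0.11), among them Idi1 (-0.21), Hsd17b7 (-0.18), the sterol sensor Insig1 (-0.26) and the sterol carrier Stard4 (-0.15). This count was 3 without Q111 F2 or Q175 M4 and 9 without Q111 F1. It was 1 without Q175 F2 and M2 and 0 with the L token as a term. Nuclear genes of the respiratory chain had differences above 0 in all 24 cases (median 0.06), and Ndufa1 (0.15), Atp5b (0.09) and Atp5a1 (0.08) passed. None of the list passed without Q175 F2 and M2, where its median was 0.04, and with the length lean as a term the median was 0.02. It was -0.01 at 10 months and -0.03 at 2 months. None of 13 mitochondrially encoded genes passed.

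Glial lists gave small differences. Among 17 astrocyte transcripts the glutamate transporters Slc1a2 (-0.20) and Slc1a3 (-0.11), the bicarbonate transporter Slc4a4 (-0.19), the gap junction protein Gja1 (-0.11) and Kcnj10 (-0.12) were lower, and S100b (0.14) was higher. The count of lower genes was 4 without Q175 F2 and M2 together, 2 without Q175 F2 or Q175 M4 and 3 without Q111 F2, Q111 F3, Q111 M3 or Q175 F1. Of 15 gliosis genes, Serpina3n passed (0.29). Its call ended in 8 of the 16 fits that left out 1 library, and no gliosis gene passed without Q175 F2 and M2 or with the length lean as a term. Ctss (0.14) and C1qb (0.14) were higher among 20 microglial genes, of which 19 had a difference above 0. Neither passed without Q111 F2 or Q111 M3, or without Q175 F2 and M2.

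In the oligodendrocyte lineage the genes that passed were all higher in Q175. Olig2 and Olig1, the factors that specify the lineage, differed by 0.26 and 0.29, and of the pair Olig1 did not pass without Q175 F2 and M2. Olig2 ran from 15.6 to 20.8 CPM in Q111 and from 19.7 to 24.1 CPM in Q175, with 6 Q175 libraries above all of Q111. Enpp6, a phosphodiesterase of newly forming oligodendrocytes, had 4.19 to 5.93 CPM in Q111 and 5.78 to 7.45 CPM in Q175 (0.39 ± 0.072). Plxnb3 was the other of 11 genes of that stage to pass (0.23). Of 9 precursor genes 5 had a difference above 0 and 4 below. At 10 months Olig2 stood at -0.06 and Olig1 at -0.005. No gene of the precursor, newly formed or myelin lists passed at that age.

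Of 20 myelin genes 12 had a difference above 0 and 8 below. The threshold was passed by 4, all higher, among them Ppp1r14a (0.41), Gjb1 (0.20) and Mag (0.15). Ppp1r14a passed in each fit that left out 1 library, while Gjb1 and Mag were each lost in 12 of the 16 such fits. The count of higher myelin genes was 1 without Q111 F2, Q111 F4, Q111 M3, Q111 M4, Q175 F2, Q175 M1, Q175 M2 or Q175 M4, and 1 without Q175 F2 and M2 together. It was 2 without Q111 F3, Q111 M1, Q111 M2, Q175 F1, Q175 F3 or Q175 F4. The summed level of the myelin list overlapped widely, at 4156 to 5166 CPM in Q111 and 4048 to 5313 CPM in Q175. All 20 myelin genes were above 0 at 10 months and 19 were below 0 at 2 months, with none passing. No gene of the endothelial, mural, meningeal, hypothalamic, blood, p53, mismatch repair or sex-linked lists passed. Single genes passed in the lists for choroid plexus (Otx2, 0.61), hippocampus (Wfs1), thalamus (Pdp1, -0.29), heat shock (Hspa8, 0.12), stress and serine synthesis (Psat1, 0.14) and beta-protocadherins (Pcdhb3, -0.21). Of these, Otx2, Pdp1, Hspa8 and Pcdhb3 did not pass without Q175 F2 and M2. Leaving out 1 library ended the call of Otx2 in 13 of 16 fits and those of Hspa8 and Pcdhb3 in 12 each. Developmental transcription factors gave 2 of 9, Otx2 and Onecut2 (0.39), and none without Q175 F2 and M2. None passed without Q111 F2, Q111 F4, Q111 M3, Q111 M4, Q175 F1, Q175 F2 or Q175 M1 either. At 10 months Otx2 stood at -2.04 and did not pass. Among 17 huntingtin partners, Htt itself and the kinesin Kif5c (-0.14) were lower and the mitochondrial protease Htra2 (0.16) was higher.

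Length of transcript went with the direction of the calls. The median transcript length was 2162 bases for the higher genes and 4274 for the lower ones. In the shortest 20% of transcripts 118 genes were higher and 39 lower, and in the longest 20% 20 were higher and 154 lower. Without Q175 F2 and M2 the medians came to 3095 and 4022 bases. With the lean of each library as a term they were 3684 and 3604 bases, and 402 genes passed, 136 higher and 266 lower. What gave these libraries their lean was not tested.

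The genes around Htt were examined because a knock-in allele brings its flanking chromosome with it. Of 119 other genes tested that start within 5 Mb of Htt, 8 were lower (6.72%) and none higher. On chromosome 5 as a whole 37 of 1007 genes were lower and 16 higher (5.26% called in either direction). Among all genes 2.74% were lower and 1.8% higher. Wfs1 lies 2.20 Mb from Htt and is among the 8 lower genes near it. Nat8l, which makes N-acetylaspartate in neurons, was measured at 396 to 459 CPM in Q111 and at 348 to 389 CPM in Q175 (-0.19 ± 0.028). Otof (-0.30), Selenoi (-0.14), Fosl2 (-0.56), Poln (-0.63) and Msantd1 (-0.35), which overlaps Htt on the same strand, were also lower, as was the gene model Gm15513 (-0.32).

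No gene's difference between the alleles was shown to differ between the sexes. The interaction of allele and sex passed for no gene with edgeR (421 at an unadjusted p under 0.05) and for none with DESeq2. Within females 58 genes passed (0.347%), 4 higher (0.024%) and 54 lower (0.323%). Within males 133 passed (0.797%), 44 higher (0.264%) and 89 lower (0.533%). Plk5 differed by -0.76 ± 0.059 in females and by -0.63 ± 0.059 in males. Wfs1 gave -0.31 in both. With 4 libraries a side, small differences between the sexes were not detectable.

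The same alleles were also measured at 10 months in other mice, so that no library is shared. There 1067 of 16457 genes passed (6.48%), 367 higher (2.23%) and 700 lower (4.25%). Of the genes lower at 6 months 455 were tested again, of which 413 (90.8%) were below 0 and 221 passed in the same direction. Of the 301 higher at 6 months, 245 (81.4%) were above 0 and 55 passed. None passed in the opposite direction. The 276 shared genes were 36.4% of the list at 6 months and 25.9% of that at 10 months. Among the libraries of 10 months Q111 M3 leaned most to short transcripts, at -0.37. With the length lean as a term 1305 genes passed at 10 months, of which 943 were among the 1067. All 11 choroid plexus genes were below 0 at that age (median -2.51), and 1 of them passed. Whether these have a part in the shared calls was not tested.

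Several of the leading genes differed more at 10 months. Plk5 had a log2 difference of -1.63 ± 0.158 there, with a mean of 15.6 ± 4.85 CPM (SD, n = 8) in Q111 and 5.0 ± 1.1 CPM in Q175. The interaction test placed the difference between the ages at 0.93 ± 0.172 (adjusted p = 0.0177). Wfs1 changed from -0.31 to -0.73, with means of 87.9 ± 8.45 and 53 ± 6.65 CPM at 10 months (interaction 0.42 ± 0.082, adjusted p = 0.0223). Otof, the calcium sensor otoferlin, went from -0.30 to -0.92. Onecut2, a developmental transcription factor, went from 0.39 to 1.35, as its mean in Q175 was 6.11 CPM at 6 months and 13.3 ± 1.94 CPM at 10 months. In all 22 genes passed this interaction (0.129%), 17 with a positive value (0.0994%) and 5 with a negative one (0.0292%).

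For Hipk4 (-0.56), Gpr153 (-0.74), Lamp5 (-0.56), Asl (0.35) and Rgs13 (1.38) the difference at 10 months also passed, and the interaction did not. Scn4b stood at -0.42 and Irf7 at 0.49, close to their values at 6 months. Uchl1, at 0.09 ± 0.059, did not pass at 10 months. Nor did Tubb5 (0.08), Acot7 (0.09), Anapc5 (0.05), Rprm (0.10), Sstr1 (0.10) or Bhlhe22, which had the opposite sign there (-0.08). The rest of the 14 leading higher genes passed at that age.

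Among the lists, interferon-stimulated genes gave 7 of 24 higher at 10 months with a median of 0.16, and upper-layer transcripts 5 of 14 lower with a median of -0.16. Immediate early genes had a median of 0.04 at 10 months and of 0.17 at 2 months. Nr1d1 (0.02) and Ciart (-0.04) did not pass at 10 months, while Per3 (-0.28) did.

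At 2 months the alleles were hardly separable by gene. Of 16469 genes 2 passed (0.0121%): Htt, at -0.34 (adjusted p = 0.00381), and the gene model 6030443J06Rik, at -1.21. An unadjusted p under 0.05 was found for 909 genes, these 2 included, and 19 passed with DESeq2. Of the genes called at 6 months, 42.0% of those higher and 47.7% of those lower had the same sign at 2 months, with medians of -0.01 and 0.00. Plk5 stood at -0.06, with means of 18.8 ± 1.93 CPM in Q111 and 18.1 ± 2.37 CPM in Q175 (SD, n = 8). All 22 genes of the striatal list were below 0 at 2 months (median -0.33), and none passed. Other lists were as one-sided, such as the meningeal list with 12 of 12 above 0 (median 0.32).

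By the interaction test, the difference changed from 2 to 6 months in 100 genes (0.584%), 45 in the positive (0.263%) and 55 in the negative direction (0.321%). Plk5 changed by -0.63 ± 0.085 (adjusted p = 1.80e-04), Gpr153 by -0.39, Hipk4 by -0.36 and Camk2a by -0.28. Egr2 changed by -1.51, from 0.45 at 2 months to -1.08 at 6 months, and Fos by -1.01, from 0.37 to -0.67. Neither passed at 2 months. Asl changed by 0.24. Without Q175 F2 and M2, 38 genes passed, 6 of them in the positive direction.

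**Figure D4:**
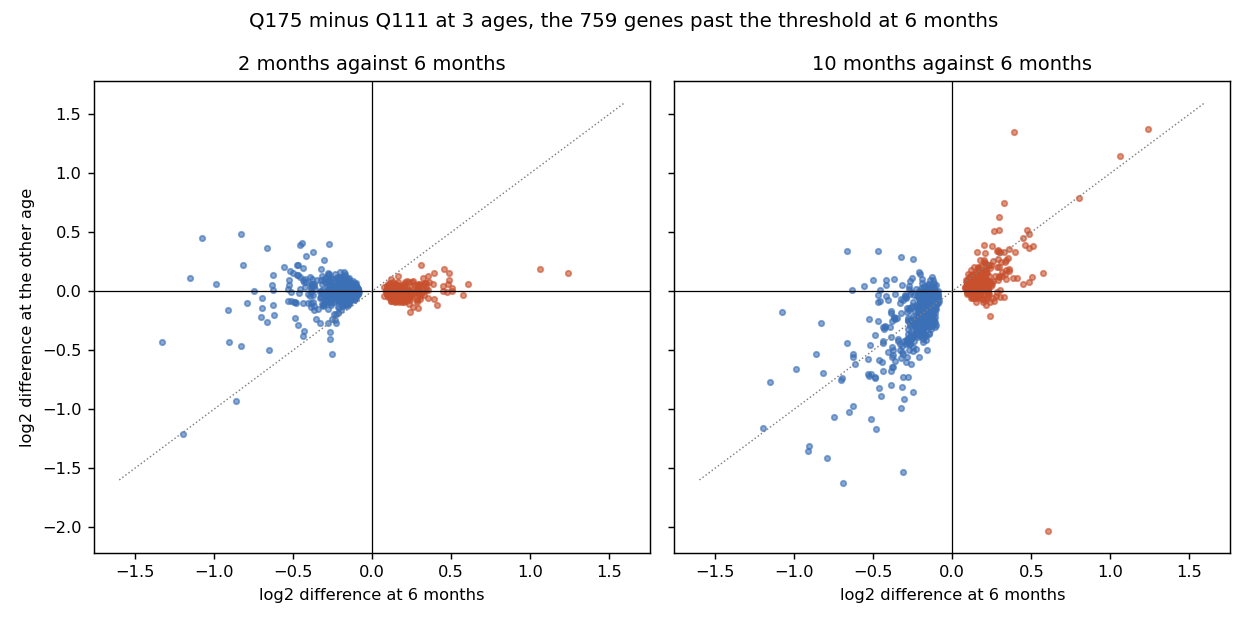
Log2 difference between Q175 and Q111 cortex at 2 months and at 10 months (vertical) against that at 6 months (horizontal) for the genes called at 6 months, orange where higher and blue where lower at 6 months, with the line of equal values dotted. The points lie around 0 at 2 months and follow the sign of 6 months in most genes at 10 months.

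The other alleles at 6 months show where Q111 and Q175 stand in the series. These are means and SD of 8 libraries on 1 scale for all 56 libraries of that age, given as a description. The wild-type libraries of that age carry names of another form than those of Q20, Q80, Q111 and Q175. Genotype and library series therefore cannot be told apart for wild type. The library numbers of Q20, Q111 and Q175 each formed a block of their own too. Allele and library block cannot be told apart among these alleles either. All 20 listed liver transcripts could be tested on the 56 libraries, beside 4 on the 16, so other groups carried liver transcripts. Htt had 201 ± 3.81 CPM in wild type, 209 ± 11.8 in Q20, 228 ± 5.32 in Q80, 229 ± 9.80 in Q92, 209 ± 8.98 in Q111, 186 ± 6.70 in Q140 and 155 ± 16 in Q175. Q140 and Q175 were thus the 2 lowest groups, while the other means lay between 201 and 229 CPM. Hipk4 kept between 62.8 and 64.5 CPM from wild type to Q111, then stood at 57.6 ± 1.88 in Q140 and 49.0 ± 2.38 in Q175. Asl was at 13.3 ± 0.505 in Q111, 14.3 ± 0.442 in Q140 and 16.3 ± 0.356 in Q175.

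In some leading genes wild type or Q140 stood elsewhere. Plk5 was at 24.4 ± 1.21 CPM in Q111, the highest group, 19.8 ± 1.52 in Q140 and 15.1 ± 1.21 in Q175. Its level in wild type, 19.4 ± 1.34 CPM, was close to that of Q140. Wfs1 had 108 ± 9.82 CPM in wild type, close to the 106 ± 3.90 of Q175, and 131 ± 5.61 in Q111. Prdm8 and Rgs13 had a raised mean in Q175 alone: Prdm8 was at 18.7 ± 1.63 in Q111, 18.4 ± 1.42 in Q140 and 23.4 ± 1.21 in Q175. Rgs13 was at 0.305 ± 0.0964 in Q111, 0.325 ± 0.112 in Q140 and 0.723 ± 0.163 in Q175.

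Over all genes lower at 6 months the Q140 mean lay between those of Q111 and Q175 in 83.6%, and over those higher in 69.1%. This held for 33.8% of all genes tested. Because the genes were chosen by the gap between Q111 and Q175, which sets how wide the interval is, these shares are a description.

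**Figure D5:**
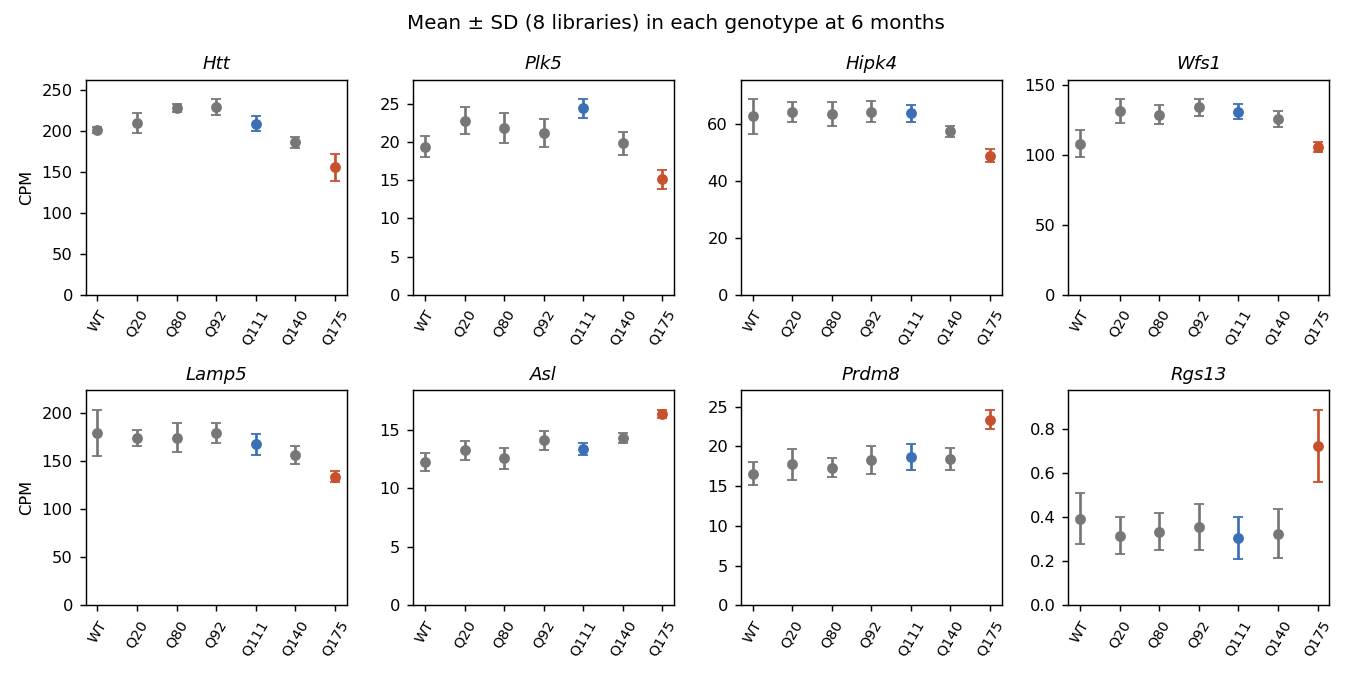
Mean and SD of CPM in 8 libraries each of wild-type, Q20, Q80, Q92, Q111, Q140 and Q175 cortex at 6 months for 8 transcripts. Htt, Hipk4 and Lamp5 are lowest in Q175 with Q140 next, whereas wild type is near Q175 for Wfs1 and Prdm8 and Rgs13 stand apart in Q175 alone. For wild type, genotype and library series cannot be told apart, nor can allele and library block among Q20, Q111 and Q175.

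A few low-count genes with large differences lie outside the rule for named genes and were picked out after their values were seen. Chrna10, a nicotinic receptor subunit, differed by -1.33, Mslnl by -1.15 and 6030443J06Rik by -1.20, and the last also gave -1.16 at 10 months. Cd4 differed by -0.86 at 6 months. It stood at -0.93 at 2 months and at -0.53 at 10 months, and passed at neither of these ages.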

How the data were processed

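Messenger RNA of cortex was sequenced in 168 libraries, of which 16 enter the main comparison, and groups were taken from the titles. The authors deposited estimated counts per gene, of which 17.7% were not whole, and, for the same libraries, FPKM values, which divide by transcript length and by depth. Per the submitters' processing notes CASAVA 1.8.2 was used, and for the aligner, quantifier, build and annotation the answer is: not given in the sources used here. Symbols and positions are from GENCODE M21 (GRCm38). Of 39179 gene IDs 37693 had a symbol, and IDs without one held 0.258% of counts.

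Estimated counts were rounded. Genes with low counts were left out (filterByExpr, minimum count 10, minimum total 15), libraries were scaled by TMM, and genes were tested with the quasi-likelihood test of edgeR 4.0.16 (robust, two-sided, sex as a covariate), with Benjamini-Hochberg adjustment over all genes tested and a threshold of 0.05. CPM are TMM-scaled. Ages and sexes were compared by interaction terms. The procedure was tested on simulated data. No pair of libraries within a group agreed within counting error (chi-square per degree of freedom at least 4.57), and the biological coefficient of variation was 0.0637. Each of the 16 libraries held at least 33942389 estimated counts.

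The comparison and the 40 gene lists were chosen with earlier results of these data known. Lists are described by counts and medians and were not tested. Named genes were the 14 higher and 14 lower genes with the smallest p, up to 4 called members of each list, Htt, up to 4 genes each way of each interaction and up to 4 called genes within 5 Mb of Htt, leaving out clone names. Other list members named were called ones, and some genes are not reported here. Alternatives were DESeq2 1.42.0, its size factors, no filter, no sex term, all 56 libraries of 6 months, a replicate block, the L token in library names as a term, limma 3.58.1 on log2 FPKM with pseudocounts of 0.1 and 1 (mean FPKM at least 0.1), a threshold of 0.01 and leaving out each library. Added after the values were seen were centred FPKM, fits without Q175 F2 and M2, and the length lean as a term. R 4.3.3 and Python 3.11.15 were used.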

Additional observations from a re-analysis of the deposited data

Results flagged for a closer look

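In 10 of 206 checks, each of 1 gene in 1 group of 8 libraries, a single library stood far from the rest of its group. The rule has a nominal rate of 1 in 20 for independent checks, but these checks share libraries. What set the flagged libraries apart was not tested. In Q175 these were Asl in F3 (17.2 CPM), Rgs13 in F4 (0.371 CPM, beside a median of 0.798), Sstr1 in M2 (11.4 CPM), Ryr1 in M2 (24.3 CPM, beside a median of 33.5) and Psat1 in F4 (141 CPM, beside a median of 128). In Q111 they were Sstr1 in F2 (13.1 CPM, beside a median of 10.1), Ppp1r1b in F3 (154 CPM), Rasgrf2 in F4 (203 CPM), Cux1 in M1 (116 CPM) and Ndufa1 in F3 (36.4 CPM).

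The Q175 to Q111 difference changed between ages, by an interaction test, in the named genes below, and values are the log2 difference at 6 months minus that at the other age. Against 10 months it was 0.93 for Plk5, 0.42 for Wfs1, 0.81 for Qrfpr, 0.97 for Tnfrsf8, 0.61 for Otof and 0.66 for Olfr78, each of which had a difference below 0 at 10 months. At 6 months Qrfpr (0.04) and Tnfrsf8 (-0.15) did not pass. In the other direction it was -0.96 for Onecut2, -0.37 for Pcdhb3, -0.53 for Zdbf2, -0.79 for Fosb and -0.26 for Ctdp1.

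Against 2 months, genes lower in Q175 at 6 months gave -0.63 for Plk5, -0.39 for Gpr153, -0.36 for Hipk4, -0.32 for Camk2n1, -0.29 for Gabrd, -0.23 for Camkk2 and -0.28 for Camk2a. The activity genes Egr2 and Fos gave -1.51 and -1.01, Etnk2 -0.47, the clock output factor Hlf -0.24, and the sterol genes Hsd17b7 and Stard4 -0.27 and -0.25. Genes higher at 6 months gave 0.24 for Asl, 0.16 for Tubb5, 0.21 for Acot7, 0.18 for Tprgl, 0.14 for Anapc5 and 0.22 for Uchl1. Glial and other genes gave 0.44 for Serpina3n, 0.40 for Olig2, 0.30 for Plxnb3, 0.12 for Atp5a1, 0.30 for the nucleolar methyltransferase Fbl and 0.23 for the receptor Gpr85.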

How the results depend on the processing

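The count of 759 genes between Q175 and Q111 at 6 months was 260 with the L token as a term (60 higher and 200 lower), 477 without Q175 F2 and M2, 402 with the length lean as a term, 466 on log2 FPKM without a filter and 244 at an adjusted p of 0.01. Leaving out 1 library gave 451 (without Q111 M3) to 1000 (without Q175 F4), with 151 higher and 311 lower without Q175 F2. Library numbers did not pair the samples, since correlations of same-numbered libraries ran from -0.124 to 0.131 and 4 of 8 correlated best with their own number, and the replicate block gave 1147. DESeq2 gave 1102 and all 56 libraries of 6 months 1081. DESeq2 gave 19 genes at 2 months, 144 for the change against 10 months and 354 for that against 2 months, and no filter gave 13 and 15 for these changes. Without Q175 F2 and M2 the change against 2 months gave 38. Of 98 called named genes 42 kept their call in every alternative and none reversed, 75 kept it in every fit that left out 1 library, 71 without Q175 F2 and M2, 68 with the lean and 49 with the L token. Most were lost without Q111 M3, 21 of 98. The causes were not tested. The L token had 8 values, 4 of them in both alleles, and 5 libraries held a value seen in 1 allele only, so that this term also removes information on the allele.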
